A study of Mus musculus with 8 samples.

Results

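Complex I of the respiratory chain (NADH:ubiquinone oxidoreductase) was examined through the nuclear genes whose symbols begin with Nduf. The 8 libraries are bulk RNA-seq of mouse brain, 4 from control mice and 4 from mice with a conditional knockout (cKO) of Akap11. Akap11 encodes an anchoring protein of protein kinase A. The sources used here do not give the brain region, the age, sex and strain of the mice, the recombinase line that drives the deletion, the allele or whether controls carry it. Among the 57186 genes listed per library, 48 were protein coding under a name that begins with Nduf. They comprise 7 core subunits, 31 accessory subunits, 8 assembly factors (Ndufaf genes) and the pair Ndufa4 and Ndufa4l2. Ndufa4 carries a complex I name but its protein is now assigned to complex IV, and Ndufa4l2 is its paralogue. The low-count filter kept 47 of the 48 among the 16766 genes tested, and left out Ndufb4c, which had 0 to 5 reads per library.

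Complex I takes electrons from NADH and passes them through a flavin and a chain of iron-sulphur clusters to ubiquinone, while its membrane arm pumps protons. The core subunits are those conserved from bacteria. 7 of them are encoded in the nucleus and form the arm that reaches into the matrix, and the other 7 are encoded by mitochondrial DNA and form the membrane arm. Accessory subunits surround this core and are needed for its assembly and stability. Assembly factors join intermediates on the way and are absent from the finished enzyme. Neurons rely heavily on oxidative phosphorylation, and inherited defects of this enzyme often affect the brain. Transcription factors with recognised sites in promoters of respiratory genes include NRF1, the ETS factor GABP and YY1.

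Promoter windows from RefSeq (build GRCm38.p6, 250 bases before to 50 bases after a gene's start) were found for 41 of the 48 genes, as 43 windows. Of the windows, 27.9% held the NRF1 half-site TGCGCA, 27.9% the ETS core CCGGAA and 18.6% the YY1 core AAGATGG, on either strand. Among all 32851 promoter windows in the same table the shares were 7.76%, 14.9% and 6.34%. At least 1 of the 3 motifs lay in 58.1% of the Nduf windows and in 25.3% of all windows. The Nduf windows also had more G and C (median 59.3% against 52.7%), and the part of this in the motif shares was not tested. By class, 4 of 5 core windows held the ETS core and 0 of 5 the NRF1 half-site, whereas 11 of 30 accessory windows held the NRF1 half-site and 6 of 30 the ETS core. Ndufa5 has overlapping windows that hold the same NRF1 half-site, which thus counts more than once among the 11. A window counts once however many matches it holds; an ETS match can overlap its own reverse complement (TTCCGG), which occurred in the Ndufa10 window. The windows shown are those of Ndufs7 and Ndufs8, the core genes with the highest fold changes, of Ndufb10, a highly expressed accessory gene, and of Ndufa9, the one window that held all 3 motifs. Capitals mark the motif matches, and each sequence runs 5′ to 3′ on the gene's strand.
Ndufs7 (chr10:80249199-80249498, plus strand): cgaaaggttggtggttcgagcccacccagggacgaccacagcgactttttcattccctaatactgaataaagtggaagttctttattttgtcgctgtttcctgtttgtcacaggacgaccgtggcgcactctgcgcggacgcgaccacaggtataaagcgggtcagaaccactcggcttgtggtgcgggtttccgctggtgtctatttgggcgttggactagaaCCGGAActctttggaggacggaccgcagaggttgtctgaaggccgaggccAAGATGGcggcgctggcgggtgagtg
Ndufs8 (chr19:3912725-3913024, minus strand): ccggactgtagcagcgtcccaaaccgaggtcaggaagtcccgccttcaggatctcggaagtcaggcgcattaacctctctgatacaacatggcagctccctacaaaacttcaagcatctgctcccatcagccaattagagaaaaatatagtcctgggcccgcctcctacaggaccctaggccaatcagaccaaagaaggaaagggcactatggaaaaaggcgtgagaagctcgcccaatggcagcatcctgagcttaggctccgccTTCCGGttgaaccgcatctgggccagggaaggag
Ndufb10 (chr17:24724374-24724673, minus strand): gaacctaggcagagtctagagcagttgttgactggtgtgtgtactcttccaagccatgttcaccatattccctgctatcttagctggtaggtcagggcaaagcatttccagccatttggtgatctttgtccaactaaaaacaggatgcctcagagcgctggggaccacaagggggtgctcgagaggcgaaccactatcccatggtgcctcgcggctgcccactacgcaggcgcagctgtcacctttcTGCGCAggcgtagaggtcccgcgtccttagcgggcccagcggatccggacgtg
Ndufa9 (chr6:126849095-126849394, minus strand): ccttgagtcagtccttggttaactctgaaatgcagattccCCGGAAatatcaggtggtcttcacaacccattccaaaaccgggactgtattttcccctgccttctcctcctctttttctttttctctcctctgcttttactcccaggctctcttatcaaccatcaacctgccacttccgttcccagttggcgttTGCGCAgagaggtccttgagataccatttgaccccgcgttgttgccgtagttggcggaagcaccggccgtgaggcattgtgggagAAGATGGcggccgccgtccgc
The Ndufs7 window holds an ETS core and, at its 3′ end, the YY1 core. The Ndufs8 window holds 1 ETS core, on the opposite strand, and the Ndufb10 window 1 NRF1 half-site. These matches describe letters in a window and show no binding.

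Libraries held 13841218 to 19991942 reads in genes. cKO replicate 1 stood apart, with 63.8% of its listed reads in genes and the highest shares of unaligned (10.4%) and ambiguous reads (10.1%). cKO replicate 2 lay at the other end, with 79.7% in genes and the lowest shares of unaligned (3.31%) and ambiguous reads (5.14%). The other libraries had 73.7% to 75.5% in genes. Many Nduf fold changes moved by over 1.5 times when cKO replicate 1 or another cKO library was left out. Such values are given below for the genes the results turn on. Akap11 itself, given as CPM (read counts scaled by TMM to a common library size), was 373, 312, 315 and 291 CPM in the control libraries and 220, 214, 237 and 240 in the cKO libraries. It was lower in every cKO library (log2 fold change -0.50, SE 0.069, edgeR adjusted p 0.0103). Marker genes of neurons, astrocytes, oligodendrocytes and microglia were detected in all libraries. Summed neuron markers ranged from 7450 to 8280 CPM in control and from 7212 to 7710 CPM in cKO libraries, and summed endothelial markers from 227 to 252 and from 218 to 233 CPM. In bulk tissue, fewer cells of a type and less RNA per cell cannot be told apart.

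No Nduf gene passed the test between control and cKO brain. Of the 47 genes tested with edgeR, 0 had an adjusted p under 0.05 (lowest 0.889), beside 4 of all 16766 genes, or 0.0239%. DESeq2 and limma voom also called 0. The 4 cKO libraries lay all above the 4 control libraries for 0 of the 47 genes and all below for 0, where 1.57% and 1.39% of all genes did so. An unadjusted p under 0.05 was reached by 1 gene, the core subunit Ndufs8, which was higher; among all genes 2.87% were higher and 1.91% lower at that level. The median log2 fold change was 0.02 over the 7 core subunits, 0.01 over 30 accessory subunits and -0.03 over the 8 assembly factors, against 0.0034 over all genes tested. The 95% interval of the fold change lay within 1.5-fold in either direction for 45 of the 47 genes, the exceptions being Ndufb1 and Ndufb8. That was true of 12871 of all 16766 genes.

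**Figure D1:**
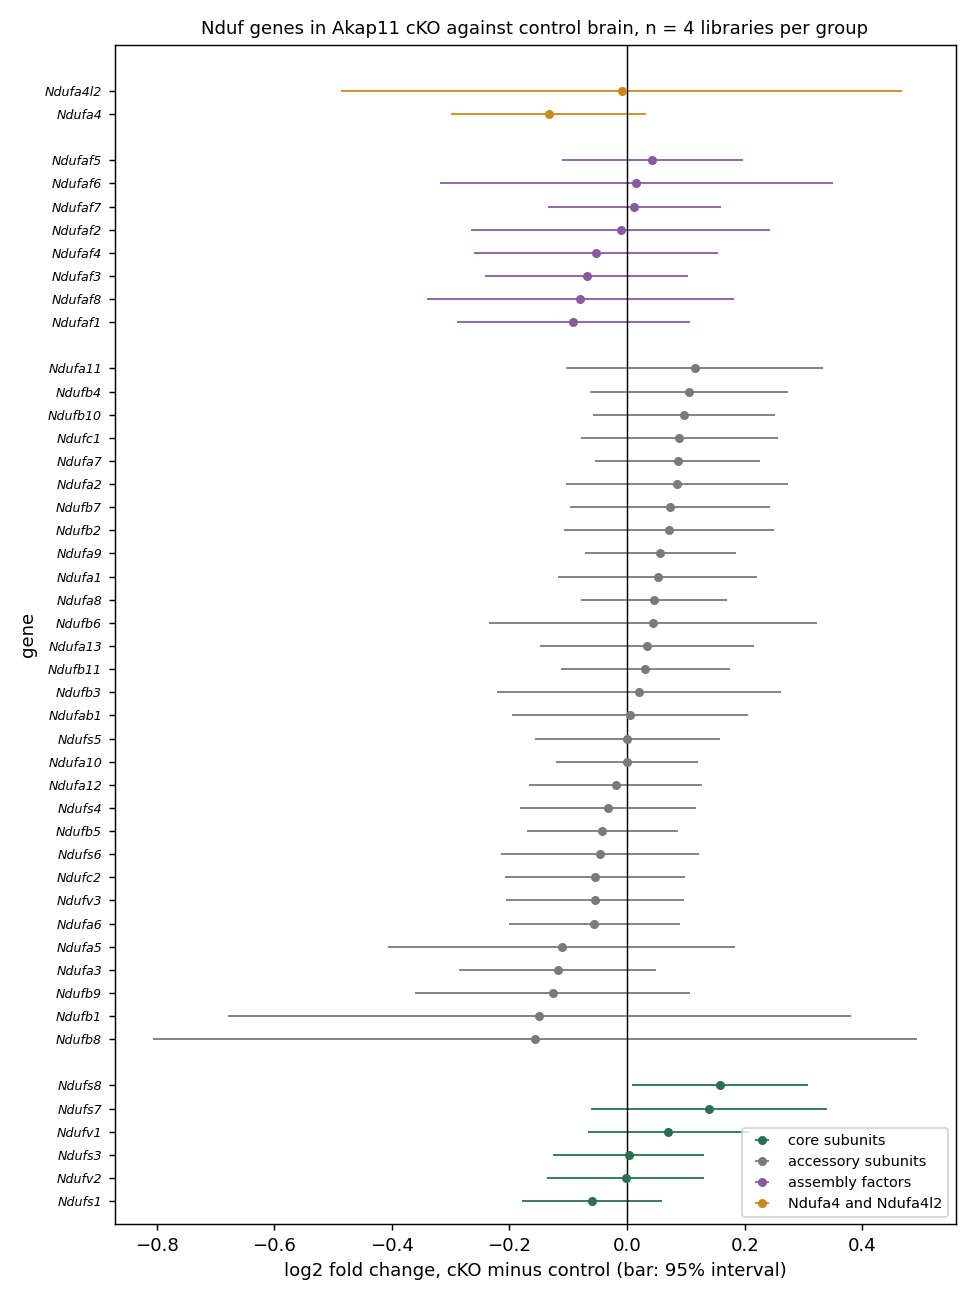
Log2 fold change of 46 of the 47 tested Nduf genes, cKO minus control, with bars for the 95% interval, ordered within each class (n = 4 libraries per group). The point estimates run from -0.16 (Ndufb8) to 0.16 (Ndufs8), and the interval of every gene shown except Ndufs8 includes 0.

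The nuclear core subunits that take up NADH are Ndufv1, Ndufv2 and Ndufs1. Ndufv1 (ENSMUSG00000037916, chromosome 19), which binds the flavin and NADH, had 148, 157, 151 and 159 CPM in control and 185, 159, 153 and 149 CPM in cKO libraries. cKO replicate 1 was the highest of the 8, and the other 3 cKO values lay among the controls. The means were 154 ± 5.01 and 162 ± 16.3 CPM (SD, n = 4 each), and the log2 difference of 0.07 (SE 0.066, edgeR adjusted p 0.901) was -0.0043 without cKO replicate 1. Ndufv2 (ENSMUSG00000024099, chromosome 17), an iron-sulphur subunit beside it, had 109, 111, 115 and 113 CPM in control libraries. In cKO libraries it had 97.4, 118, 116 and 115 CPM, so that replicate 1 was here the lowest of all. The log2 fold change was -0.0022 (SE 0.064) with that library and 0.05 without it. Ndufs1 (ENSMUSG00000025968, chromosome 1), the largest core subunit and carrier of several iron-sulphur clusters, was measured at 128 ± 5.24 and 123 ± 5.13 CPM (SD, n = 4 each). Its control libraries (134, 132, 123 and 124 CPM) overlapped the cKO libraries (116, 121, 128 and 126 CPM), and the log2 fold change was -0.06 (SE 0.057, edgeR adjusted p 0.905), or -0.04 without cKO replicate 1.

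Ndufs3, Ndufs7 and Ndufs8 belong to the part of the matrix arm that leads to ubiquinone. Ndufs8 (ENSMUSG00000059734, chromosome 19) carries iron-sulphur clusters near the end of the chain. It had 51.1, 49.7, 53.1 and 53.0 CPM in control and 65.0, 59.6, 54.3 and 52.3 CPM in cKO libraries. cKO replicates 1 and 2 lay above every control, replicate 3 slightly above, and replicate 4 among the controls. The means were 51.7 ± 1.62 and 57.8 ± 5.72 CPM (SD, n = 4 each), with a log2 difference of 0.16 (SE 0.072, 95% interval 0.0086 to 0.31, edgeR unadjusted p 0.0393, adjusted p 0.889). Without cKO replicate 1 it was 0.10 (edgeR unadjusted p 0.144), with GC-content offsets per library 0.09 (edgeR unadjusted p 0.11), and without cKO replicate 4 it was 0.20 (edgeR unadjusted p 0.0145).

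Ndufs7 (ENSMUSG00000020153, chromosome 10) holds the last iron-sulphur cluster, which reduces ubiquinone. It had 69.3, 71.5, 70.4 and 73.7 CPM in control and 93.7, 87.2, 69.6 and 63.9 CPM in cKO libraries. The cKO libraries thus lay on both sides of the controls, with replicates 1 and 2 above all of them and replicate 4 below all of them. The log2 fold change was 0.14 (SE 0.095, edgeR adjusted p 0.889), and 0.04 without cKO replicate 1 or with GC-content offsets. Ndufs3 (ENSMUSG00000005510, chromosome 2), a core subunit without a cofactor, had 79.1, 88.7, 81.6 and 84.6 CPM in control and 81.8, 90.1, 81.4 and 81.3 CPM in cKO libraries. The groups overlapped and the log2 fold change was 0.0026 (SE 0.062).

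**Figure D2:**
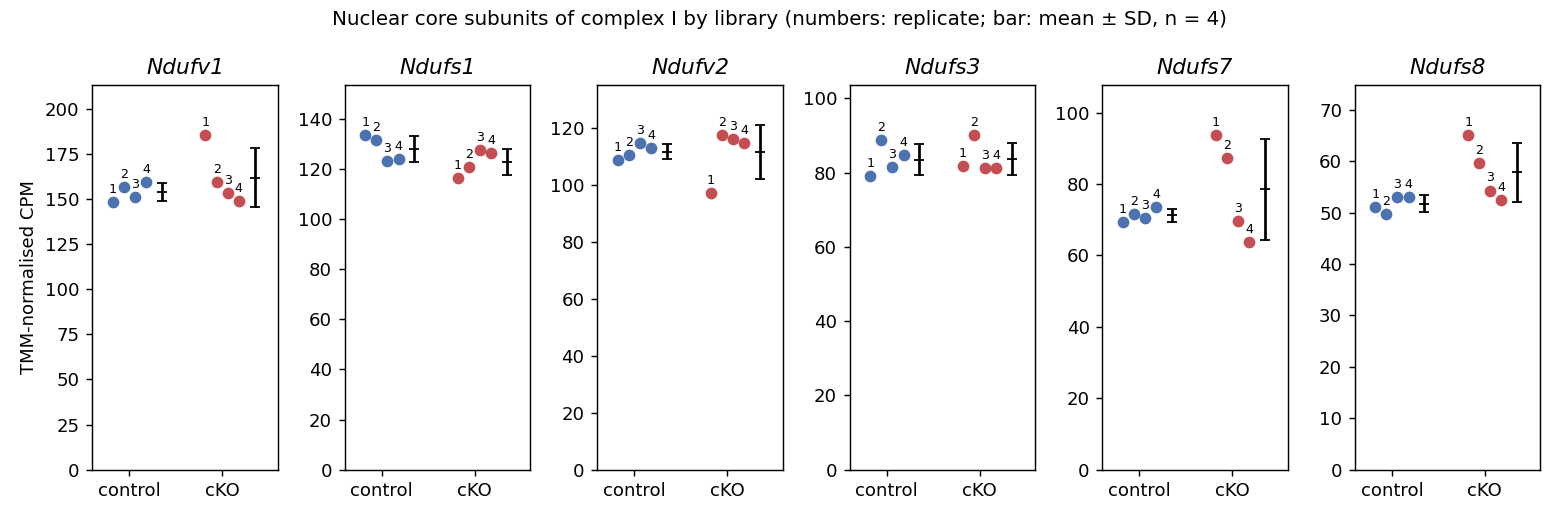
TMM-normalised CPM (vertical axis, from 0) of 6 nuclear core subunits in each control and cKO library, with replicate numbers beside the points and mean ± SD bars (n = 4). cKO replicate 1 is the highest of 8 libraries for Ndufs7, Ndufs8 and Ndufv1 and the lowest for Ndufs1 and Ndufv2.

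Among the 30 accessory subunits tested, 18 had a positive and 12 a negative log2 fold change, from -0.16 to 0.11, and 0 passed the test. The 4 positive members with the lowest p-values were Ndufb10 (0.10), Ndufb4 (0.11), Ndufa7 (0.09) and Ndufc1 (0.09), each with an edgeR adjusted p at or above 0.889. Ndufb10 and Ndufb4 sit in the distal membrane arm. Ndufb10 (ENSMUSG00000040048, chromosome 17) had 87.3, 93.8, 99.5 and 96.7 CPM in control and 99.9, 118, 93.0 and 92.7 CPM in cKO libraries. cKO replicate 2 was clearly the highest, and replicates 3 and 4 lay inside the control range. Without cKO replicate 2 its log2 fold change was 0.01. Ndufb4 showed the same library on top, with 57.9 CPM in cKO replicate 2 against 42.9, 50.0 and 47.2 CPM in the other cKO libraries and 44.3 to 48.2 CPM in control. Its log2 fold change was 0.02 without that library, and those of Ndufa7 and Ndufc1 were both 0.04. Ndufa7, a subunit of the matrix arm, had 48.4 ± 1.30 and 51.3 ± 3.44 CPM, and Ndufc1, a small membrane subunit, 30.4 ± 1.65 and 32.3 ± 2.82 CPM (SD, n = 4 per group). Of the other positive accessory genes, Ndufa11 had the highest log2 fold change (0.11, SE 0.10), with 27.0 CPM in cKO replicate 1 and 19.4 CPM in replicate 2, and it was 0.02 without cKO replicate 1.

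The 4 negative members with the lowest p-values were Ndufa3 (-0.12), Ndufb9 (-0.13), Ndufa5 (-0.11) and Ndufa6 (-0.06), with edgeR adjusted p-values from 0.889 to 0.917. Without cKO replicate 1 the log2 fold changes were -0.04 for Ndufa3, -0.04 for Ndufb9, 0.02 for Ndufa5 and -0.02 for Ndufa6. Ndufa3 (ENSMUSG00000035674, chromosome 7), a small membrane subunit, had 64.5, 64.3, 70.3 and 67.4 CPM in control and 50.0, 63.1, 69.5 and 62.5 CPM in cKO libraries. cKO replicate 1 was the lowest of the 8, and replicate 3 lay within the controls. Ndufa5 (ENSMUSG00000023089, chromosome 6), a matrix-arm subunit bound to the ubiquinone end, had 56.8, 59.8, 64.2 and 62.7 CPM in control and 39.2, 69.2, 58.0 and 58.1 CPM in cKO libraries. Here cKO replicate 1 was the lowest and replicate 2 the highest of all 8. Ndufb9, which belongs to the LYR family and sits in the distal membrane arm, had 28.0 ± 4.13 and 25.5 ± 3.80 CPM (SD, n = 4 each). Ndufa6, another LYR protein, bound to the acyl carrier protein Ndufab1, had 61.3 ± 4.44 and 58.9 ± 3.81 CPM. Ndufab1 was measured at 23.9 ± 1.63 and 23.8 ± 3.24 CPM (log2 fold change 0.0049, or 0.09 without cKO replicate 1). Ndufs4 and Ndufs6, matrix-arm subunits known from inherited complex I deficiency, had log2 fold changes of -0.03 and -0.05, which were 0.02 and -0.0042 without cKO replicate 1. Ndufa10, a membrane-arm subunit related to nucleoside kinases, was 133 CPM in both groups.

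Ndufb1 and Ndufb8 had the widest intervals. Ndufb1 (ENSMUSG00000113902, chromosome 12), a membrane-arm subunit listed in GENCODE as a noncoding gene and in RefSeq as protein coding, had 10.6 CPM in cKO replicate 1 and 19.2 to 26.0 CPM in the other 7 libraries. Its log2 fold change was -0.15 (SE 0.23), and 0.04 without cKO replicate 1. Ndufb8 (ENSMUSG00000025204, chromosome 19), whose protein is a common marker of assembled complex I, was counted with only 15 to 39 reads per library. Its log2 fold change was -0.16 (SE 0.31). It shares 4.26% of its exon bases with Gm20538 on the same strand in the older annotation used here. Other Nduf genes share more. The largest share on the same strand was 19.5%, in Ndufb9 (Gm49356 the largest overlap). On either strand it was 65.6%, in Ndufaf2. The effect of such sharing on the deposited counts was not tested.

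The 8 assembly factors had log2 fold changes from -0.09 to 0.04, 3 positive and 5 negative, and 0 passed the test. Ndufaf1, a chaperone of the membrane arm, had 21.8 ± 1.22 and 20.4 ± 2.59 CPM (log2 fold change -0.09, SE 0.095), with 17.4 and 18.9 CPM in cKO replicates 1 and 2 and 22.5 and 22.6 CPM in replicates 3 and 4. Without cKO replicate 1 its log2 fold change was -0.03. Ndufaf2, a paralogue of Ndufa12 that acts late in assembly, had 13.8 ± 0.474 and 13.6 ± 2.80 CPM. Its cKO libraries ran from 9.84 CPM in replicate 1 to 16.6 CPM in replicate 2, on both sides of the controls (13.3 to 14.4 CPM). Ndufaf3 (28.5 ± 1.95 and 27.3 ± 2.22 CPM) and Ndufaf4 (32.1 ± 2.03 and 30.8 ± 5.04 CPM) work together on the ubiquinone end, and had log2 fold changes of -0.07 and -0.05, or -0.12 and 0.05 without cKO replicate 1. Ndufaf4 was 23.5 CPM in cKO replicate 1 and 32.3, 32.3 and 35.1 CPM in the other cKO libraries.

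Ndufaf5, which hydroxylates an arginine of Ndufs7, had 29.4 ± 1.64 and 30.3 ± 0.386 CPM (SD, n = 4 each; log2 fold change 0.04). Its partner Ndufaf8 had 9.19 ± 0.121 and 8.65 ± 1.49 CPM (log2 fold change -0.08), with 10.8 CPM in cKO replicate 2 above and the other 3 cKO libraries (7.60 to 8.29 CPM) below every control. Its log2 fold change was -0.03 without cKO replicate 1 and -0.21 without replicate 2. Ndufaf7, a methyltransferase that acts early in assembly, had 34.1 ± 1.40 and 34.4 ± 1.16 CPM (log2 fold change 0.01). Ndufaf6 was the lowest of the class, at 5.26 ± 0.883 and 5.35 ± 0.860 CPM (log2 fold change 0.02). Ndufa4 (ENSMUSG00000029632, chromosome 6) had 146, 152, 151 and 149 CPM in control and 109, 153, 144 and 138 CPM in cKO libraries. cKO replicate 1 was far below the rest, and the log2 difference (-0.13, SE 0.079, edgeR adjusted p 0.889) was -0.04 without it. Ndufa4l2, a hypoxia-induced paralogue, had 2.40 ± 0.521 and 2.37 ± 0.611 CPM.

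The classes differed in level per length. Dividing CPM by the length of the principal transcript, the control level of core subunits had a median of 79.8 CPM per kb, with Ndufs1 the lowest at 49.4 and Ndufs7 at 94.0. Accessory subunits ran from 2.12 (Ndufb8, on few reads and with the overlap given above) to 130 CPM per kb (Ndufs5), with a median of 62.2. The next lowest of them was Ndufab1 at 16.9 CPM per kb. Assembly factors ran from 4.86 (Ndufaf6) to 25.2 CPM per kb (Ndufaf5), with a median of 17.1. In each of the 8 libraries the lowest core subunit (45.0 to 51.5 CPM per kb) lay above the highest assembly factor (24.2 to 27.3 CPM per kb). The level of Ndufaf2 may be undercounted, since 65.6% of its exon bases overlap a gene on the opposite strand (B230220B15Rik the largest). The strand setting of the counts is not known, and the effect on the gap between these classes was not tested. Ndufa4 stood above all of them at 245 CPM per kb. The order of the 47 genes was nearly the same in both groups (Spearman rho across genes 0.995 between the group means, as a description). Summed over class, core subunits held 799 ± 11.5 and 818 ± 38.8 CPM in control and cKO brain, accessory subunits 1538 ± 40.5 and 1544 ± 126 CPM, and assembly factors 174 ± 3.26 and 171 ± 9.41 CPM (SD, n = 4 each).

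**Figure D3:**
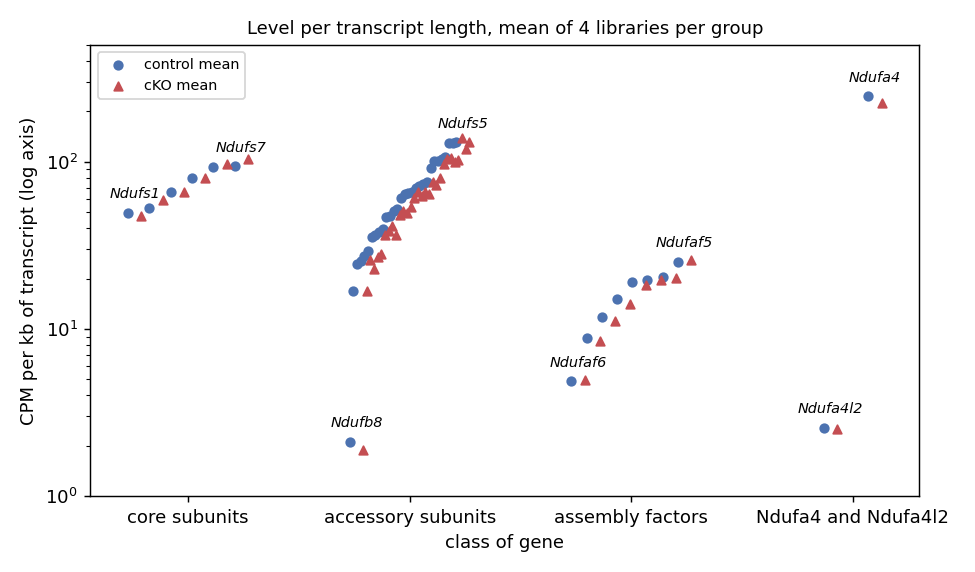
Mean CPM per kb of transcript (log axis) of 46 tested Nduf genes by class, in control (circles) and cKO (triangles) libraries, sorted by control level within class. The 8 assembly factors, at most 25.2 CPM per kb in control, lie below the core subunits, of which the lowest is Ndufs1 at 49.4.

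The cKO libraries scattered more than the control libraries in most Nduf genes. The SD of log2 CPM over 4 libraries had a median of 0.072 in control and 0.16 in cKO brain over the 47 genes, against 0.12 and 0.15 over all genes tested. It was larger in cKO for 40 of the 47 genes (85.1%) and for 59.4% of all genes. Without cKO replicate 1 it was larger for 33 (70.2%), against 46.8% of all genes. These counts are descriptions, since the genes share the same 8 libraries.

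A pair of cKO libraries, replicates 1 and 2, held most of the extreme values. cKO replicate 1 was the lowest of the 8 libraries for 25 of the 47 Nduf genes and the highest for 7. cKO replicate 2 was the highest for 23 and the lowest for 0. By class, the median deviation from the control mean in cKO replicate 1 was -0.13 on the log2 scale for accessory subunits, -0.14 for assembly factors and 0.13 for core subunits. In cKO replicate 2 it was 0.16 for accessory subunits, 0.07 for core subunits and -0.01 for assembly factors. In replicates 3 and 4 these medians stayed between -0.04 and 0.06. Without cKO replicate 2 the median log2 fold change of accessory subunits was -0.06, with 11 positive and 19 negative, and without cKO replicate 1 it was 0.03, with 21 and 9. The assembly factor median turned from -0.03 to 0.02 without cKO replicate 1.

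**Figure D4:**
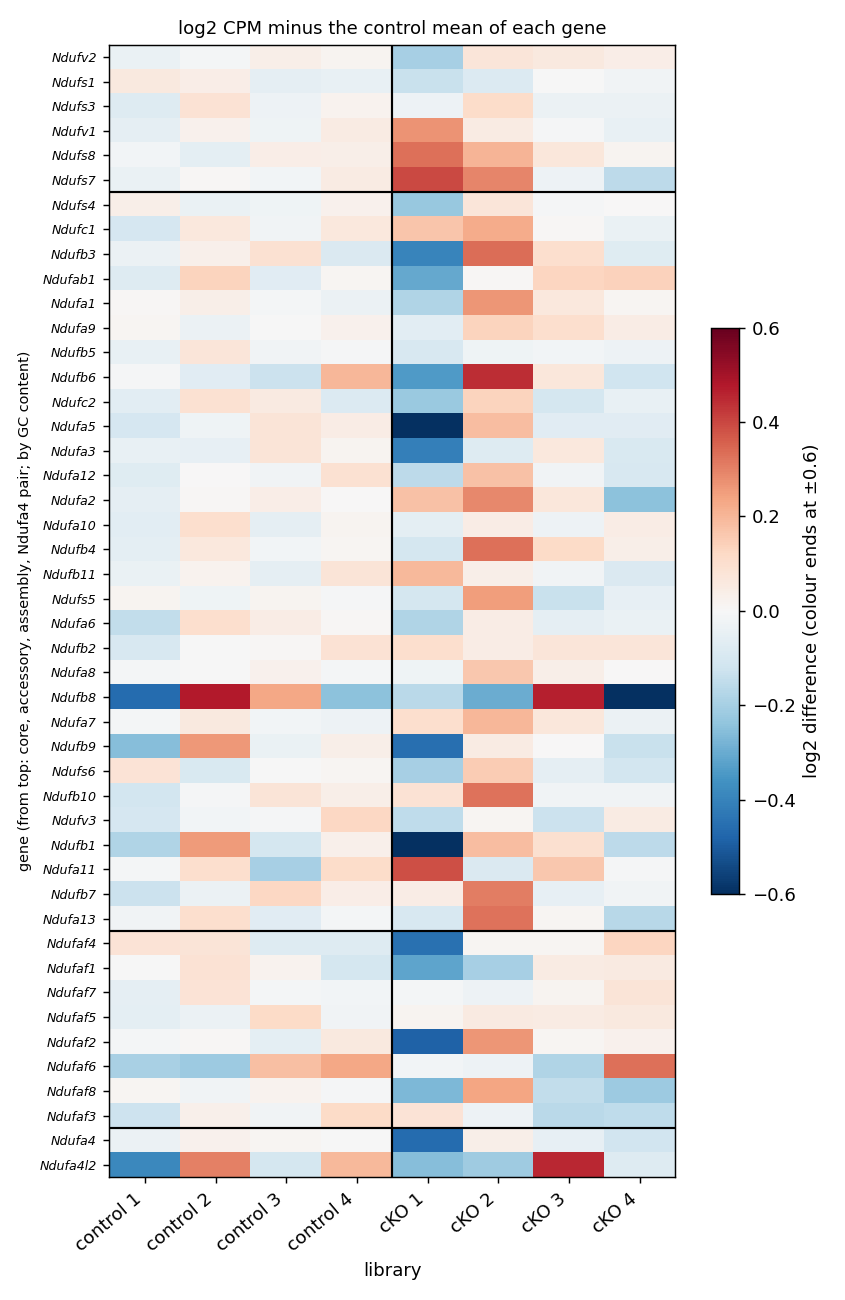
Log2 CPM minus the gene's control mean (colour, ending at ±0.6) for 46 of the 47 tested Nduf genes (rows, by class and then GC content) in the 8 libraries (columns). Over all 47 genes, cKO replicate 1 is the lowest library for 25 and cKO replicate 2 the highest for 23. The control libraries centre on 0 because their own mean is the reference.

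In some of the 8 libraries the values also varied with base composition. Across the 47 genes, Spearman's rho between the deviation and the transcript's GC content was 0.41 in cKO replicate 1, 0.12 in replicate 2, -0.08 in replicate 3 and -0.42 in replicate 4. In the control libraries it ran from -0.30 to 0.36. With transcript length rho was -0.32 in cKO replicate 2 and 0.35 in replicate 4. These are descriptions within single libraries, whose genes share depth and preparation. Among core genes, Ndufs7 (60.7% GC), Ndufs8 (57.8%) and Ndufv1 (56.7%) were high in cKO replicate 1, and Ndufv2 (42.0%) and Ndufs1 (46.6%) were low in it. Ndufs3 (53.8%) lay near its control mean there (-0.03 on the log2 scale). Some accessory genes departed from that order in the same library. Ndufb1 (56.4%) was at -1.02 and Ndufb9 (55.4%) at -0.45, and Ndufc1 (44.1%) was at 0.16. The part of base composition in the fold changes was not tested beyond the offsets named above.

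**Figure D5:**
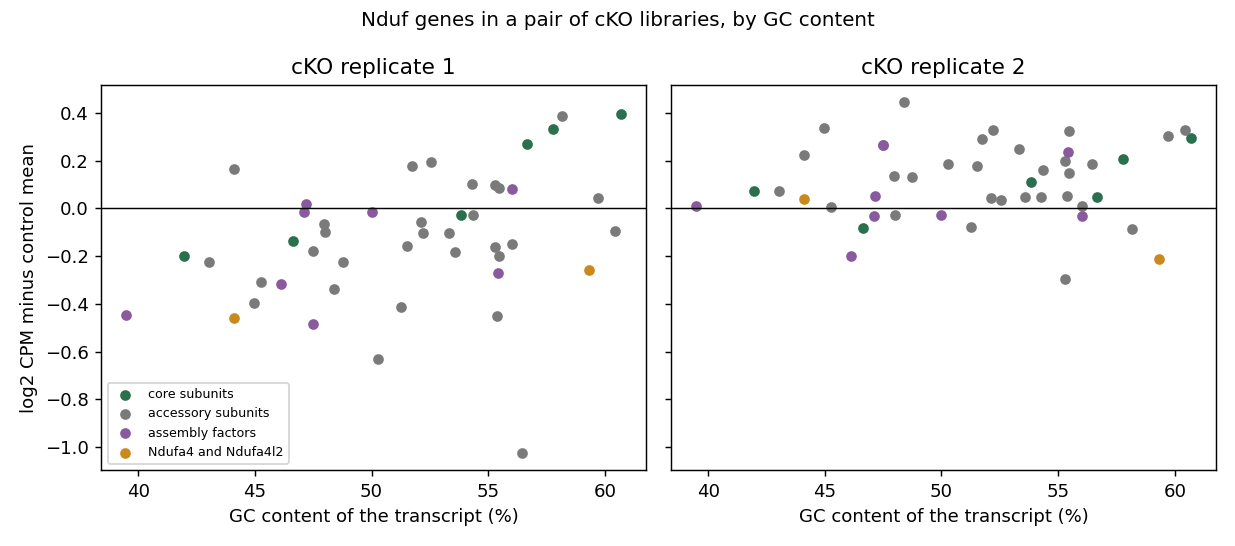
Log2 deviation from the control mean of 46 tested Nduf genes (vertical axis) against the GC content of its transcript in percent (horizontal axis), in cKO replicate 1 and cKO replicate 2, coloured by class. Over all 47 genes Spearman's rho is 0.41 in replicate 1 and 0.12 in replicate 2.

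Of the 7 membrane-arm core subunits encoded by mitochondrial DNA, 0 passed the test, 1 log2 fold change was positive and 6 were negative, with a median of -0.03. Their summed level was 12539 ± 375 and 12449 ± 1291 CPM in control and cKO brain (SD, n = 4 each), with 10522 CPM in cKO replicate 1 and 12917 to 13232 CPM in the other cKO libraries. Without cKO replicate 1 their median was 0.06, with 6 positive and 1 negative. mt-Nd3, a subunit near the junction of both arms, had 20.2, 21.9, 23.4 and 21.2 CPM in control and 7.38, 18.6, 18.8 and 22.7 CPM in cKO libraries (log2 fold change -0.34, SE 0.29, edgeR adjusted p 0.899). cKO replicate 1 was far below the other 7 libraries, and the log2 fold change was -0.12 without it. mt-Nd2 had a log2 fold change of 0.03 (SE 0.059).

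Assembly factors with other names gave 0 of 9 past the test, with a median log2 fold change of 0.05, which ran from 0.0081 to 0.08 as each library was left out in turn (0.0081 without control replicate 4 and 0.01 without cKO replicate 2). Ecsit, the partner of Ndufaf1, had 21.9, 21.5, 21.4 and 22.3 CPM in control and 25.2, 23.7, 25.0 and 23.4 CPM in cKO libraries. All 4 cKO values lay above all 4 controls, as in 1.57% of all genes tested. Its log2 fold change (0.16, SE 0.078) had an edgeR adjusted p of 0.889. Foxred1, an oxidoreductase needed for assembly, had 0.10 (SE 0.075), or 0.06 without cKO replicate 3. In complexes II, III, IV and V, 0 of 4, 9, 11 and 15 genes passed the test, with median log2 fold changes of 0.05, 0.04, 0.03 and 0.02. These medians were 0.01, 0.01, 0.03 and 0.0066 without cKO replicate 1. They were 0.06, 0.02, -0.02 and -0.02 without cKO replicate 2, so that those of complexes IV and V turned sign. The members with the lowest p-values were Sdhd (0.12) and Sdhc (0.08) in complex II, Uqcrh (-0.11) and Uqcrq (0.11) in complex III, Cox8a (0.10) and Cox6a1 (0.12) in complex IV, and Atp5d (0.15) and Atp5j (-0.07) in complex V. Atp5d, a subunit of the ATP synthase stalk, had the lowest unadjusted p of these (0.0352, edgeR adjusted p 0.889). With GC-content offsets per library its log2 fold change was 0.05 (edgeR unadjusted p 0.262). In the complex IV list, Cox7a2l had all 4 cKO libraries (113 to 117 CPM) below all 4 controls (118 to 126 CPM), as in 1.39% of all genes tested. Its log2 fold change was -0.07 (SE 0.055, edgeR adjusted p 0.889). Without cKO replicate 1 the log2 fold changes were 0.06 for Sdhd, -0.06 for Uqcrh, 0.08 for Atp5d and -0.02 for Atp5j. Without cKO replicate 2 they were 0.03 for Uqcrq, 0.06 for Cox8a and 0.0062 for Cox6a1.

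Of 10 regulators of mitochondrial gene expression, 0 passed the test and 4 were positive, with a median log2 fold change of -0.01. Polrmt, the RNA polymerase of mitochondria, had 27.8, 30.1, 29.4 and 29.9 CPM in control and 35.5, 34.6, 33.9 and 33.8 CPM in cKO libraries. All 4 cKO values lay above all 4 controls, as in 1.57% of all genes tested. The log2 fold change of Polrmt was 0.23 (SE 0.071, edgeR unadjusted p 0.00392, adjusted p 0.889). With GC-content offsets per library it was 0.14 (edgeR unadjusted p 0.0465). Tfb2m, its partner in starting transcription, had -0.14 (SE 0.091), or -0.21 without cKO replicate 3. For the factors whose motifs were searched in the Nduf promoters, the log2 fold changes were 0.07 for Nrf1, -0.06 for Gabpa (a subunit of GABP) and -0.05 for Yy1, each with overlapping groups. Of 13 genes of the outer membrane and matrix, 0 passed the test (median -0.04); Hspe1, a matrix chaperonin, had -0.13 and Tomm22, an import receptor, -0.08. Without cKO replicate 2 Hspe1 had -0.20, and without cKO replicate 1 Tomm22 had -0.02.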

How the data were processed

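Bulk RNA-seq counts of 8 mouse brain libraries (4 control, 4 Akap11 cKO; groups and replicate numbers from the titles) were analysed. The values deposited by the authors are whole-number read counts per gene without normalization. The submitters' processing notes name HISAT2 and GRCm39. The sources used here do not give the counting program, annotation or strand setting, so the treatment of reads of overlapping genes is not fully known. Reads listed as ambiguous (5.14% to 10.1% per library) stand outside the gene counts. Reads in genes made up 63.8% to 79.7% of listed reads, and rows naming no gene stayed out of library sizes and tests. Of 57186 gene identifiers, 51880 matched a symbol in GENCODE M21 (GRCm38), used only for names, biotypes, lengths, GC content and overlaps. A gene was a member if either GENCODE or RefSeq called it protein coding, and 3 Nduf pseudogenes were left out.

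Computed here, in R 4.3.3 with edgeR 4.0.16, were filterByExpr, TMM scaling and a robust quasi-likelihood fit with group as its term. P-values were adjusted by Benjamini-Hochberg over the 16766 tested genes, at a threshold of 0.05. Whether libraries are separate mice is not stated in the labels, and the p-values then reflect only the spread among libraries. On simulated data for this comparison (16766 genes, 100 changed per size) the test recovered 88% of 1.5-fold and 99% of 2-fold changes. It also called 8 unchanged genes. The changed genes were drawn only from those above a set level, and no simulated library stood apart as cKO replicate 1 does. More genes changed there than were called here, which eases the adjusted threshold. Recovery in the real libraries may therefore be lower. Alternatives were DESeq2 1.42.0, its size factors in edgeR, library totals, 2 other low-count filters, voom of limma 3.58.1, a replicate block, removal of mitochondrially encoded genes, offsets per library for GC content or transcript length, each library left out in turn, and control and cKO replicate 1 left out together.

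The genes and lists were chosen with earlier results of these data known. Named were the core subunits and assembly factors, the 4 accessory genes of lowest p per direction, those of highest and lowest mean level per length, Ndufa4 and Ndufa4l2, any Nduf gene with an unadjusted p under 0.05, any left out by the filter, and the 2 of lowest p per other mitochondrial list. Ndufa9, Ndufa10, Ndufa11, Ndufab1, Ndufb1, Ndufb5, Ndufs4, Ndufs5, Ndufs6, Nrf1, Gabpa, Yy1 and Cox7a2l were named after their values were seen. The values of 1 core subunit are not reported here singly, though class counts, sums and medians include it.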

Additional observations from a re-analysis of the deposited data

Results flagged for a closer look

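Of 94 groups of 4 libraries (47 Nduf genes in each of the control and cKO groups), 3 held a library set apart from the other 3 by Dixon's criterion at the 95% level. Chance alone gives about 1 in 20 groups. All 3 were in the cKO group. The core subunit Ndufv2 had 97.4 CPM in cKO replicate 1, where the other cKO libraries had 115 to 118 CPM. The core subunit Ndufs3 had 90.1 CPM in cKO replicate 2, with 81.3 to 81.8 CPM in the others. The accessory subunit Ndufb5, of the distal membrane arm, had 51.2 CPM in cKO replicate 1, with 53.8 to 54.2 CPM in the others, a difference smaller than the spread of its control libraries (53.2 to 57.6 CPM).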

How the results depend on the processing

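The count of Nduf genes past the threshold was 0 in each of the 20 settings, the reported one included. Over these settings the median log2 fold change ran from -0.0099 to 0.07 for core subunits, from -0.06 to 0.03 for accessory subunits and from -0.07 to 0.02 for assembly factors. No setting moved a median from its reported value by more than the pooled SD of the library medians (0.056, 0.088 and 0.063). That SD comes from the same libraries and is wide beside what leaving 1 of them out can move. It was thus a lenient limit and does not show that the medians are stable. Over all 47 genes, 92 of 893 values under the other 19 settings had the opposite sign, in 24 genes, none past the threshold, and the cause was not tested. Those of the genes chosen by the naming rule follow. Leaving out each library in turn gave log2 fold changes from -0.036 to 0.031 for Ndufs3, -0.0043 to 0.10 for Ndufv1, -0.029 to 0.052 for Ndufv2, -0.12 to 0.10 for Ndufaf2, -0.12 to 0.047 for Ndufaf4, -0.10 to 0.096 for Ndufaf6, -0.013 to 0.038 for Ndufaf7, -0.23 to 0.017 for Ndufa5, -0.46 to 0.020 for Ndufb8 and -0.22 to 0.091 for Ndufa4l2. Without both control and cKO replicate 1 the values were -0.0099 for Ndufs3, -0.016 for Ndufv1, 0.044 for Ndufv2, 0.10 for Ndufaf2, 0.079 for Ndufaf4 and -0.032 for Ndufaf6. GC-content offsets gave -0.024 for Ndufs3, 0.044 for Ndufv2 and 0.0093 for Ndufaf2. Length offsets gave -0.019 for Ndufs3, -0.0027 for Ndufaf6 and -0.0096 for Ndufaf7. For Ndufs3, DESeq2 gave -0.00041, its size factors in edgeR -0.00033 and no low-count filter -0.00067, and library totals gave 0.0072 for Ndufv2.

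Deviations from the group means of same-numbered libraries correlated weakly across genes, at 0.0052, 0.025, 0.043 and 0.049. Differently numbered control and cKO libraries ran from -0.090 to 0.105. Such weak correlations cannot decide whether the replicate numbers pair the samples. With the replicate number as a block, 0 Nduf genes passed, the medians were 0.02 for core subunits, -0.00061 for accessory subunits and -0.05 for assembly factors, and 2 of all genes passed in place of 4. Over all genes, 7 passed with no low-count filter, 2 with limma voom, and 0 to 3 with 1 library left out (0 without control replicate 2 or cKO replicate 2). Low read counts limit Ndufb8, Ndufb4c and Ndufa4l2, with at most 65 reads in any library.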

Other observations

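Other nuclear respiratory genes shared part of the pattern seen in cKO replicates 1 and 2. In cKO replicate 2 the median deviation from the control mean was positive for complex II (0.02), complex III (0.14), complex IV (0.11) and complex V (0.10), on the log2 scale. In cKO replicate 1 it was 0.20 for complex II and 0.10 for complex III, 0.03 for complex V and -0.01 for complex IV. The mitochondrially encoded complex I genes stood at -0.32 in cKO replicate 1 and between 0.05 and 0.08 in the other 3 cKO libraries. The 16766 genes tested had a median of 0.0050 in cKO replicate 1. In the same library the neuron markers had a median of -0.15, endothelial markers -0.14, choroid plexus markers -0.33, microglia markers 0.16, astrocyte markers 0.06 and oligodendrocyte markers 0.07. Medians of that size also stood in other libraries: endothelial markers were at -0.18 in cKO replicate 4 and -0.11 in replicate 3, choroid plexus markers at -0.44 in cKO replicate 3, and microglia markers at 0.16 in control replicate 1. Medians and sums can differ: summed astrocyte markers were lowest in cKO replicate 1 (3971 CPM, against 4346 to 5046 CPM in control libraries). Between the groups, single astrocyte markers went both ways, with 4 positive and 3 negative log2 fold changes from -0.20 to 0.46. Of these 7 markers 1 passed the test (edgeR adjusted p 0.0104), beside 4 of all 16766 genes. The part of these markers in the Nduf values was not tested.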
